A study of Mus musculus with 13 samples.

Results

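The genes described here encode 10 proteins that the liver secretes into the blood: Alb, Ahsg, Apoa1, Apoa2, Apoh, Ttr, Fga, Fgb, Fgg and Mup6. They were read in mouse white adipose tissue (WAT) and brown adipose tissue (BAT) on 13 arrays, through every probe whose RefSeq accession maps to one of them, out of 19752 genes that the array names. The set was chosen on levels seen on these same arrays, so the levels of the members are a description and carry no test. The groups were WAT of untreated wild-type mice (3 arrays), WAT of Fv2E-PERK transgenic mice 12 h after vehicle (2 arrays) or after AP20187 at 100 ng/g (3 arrays), and BAT of the same transgenic line 12 h after vehicle (2 arrays) or AP20187 (2 arrays). All mice were males of strain C57BL/6J, and injections were intraperitoneal. Fv2E-PERK joins the kinase part of PERK to a domain that the ligand AP20187 pairs up, which switches the kinase on without endoplasmic reticulum stress. The series names the transgene mAP::Fv2E-PERK, and the labels state neither which cells carry it nor whether the arrays of a group come from different mice. The p-values therefore reflect only how far these arrays differ, which may be technical. No wild-type group received AP20187. The 13th array has contradictory labels: its title, tissue and treatment say BAT with vehicle, and its source name says WAT. It is shown by itself.

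Hepatocytes release most proteins of blood plasma, and their genes are among the most active of the liver. Transcription of these genes depends on factors such as HNF1, HNF4, C/EBP and FOXA proteins, which together set hepatocyte identity. Adipocytes make their own secreted proteins, among them adiponectin, adipsin and some complement and lipid carriers, but are not known as a main source of albumin or fibrinogen.

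The arrays lay on 3 slides. Slide 1 held WAT vehicle 1 and all 3 wild-type arrays, slide 2 held WAT vehicle 2, all 3 WAT AP20187 arrays and the array with contradictory labels, and slide 3 held all 4 BAT arrays. Each slide had a single scan time, so slide and scan cannot be told apart. A level is the log2 processed signal of a probe after subtracting its array's 75th percentile, and a probe is called above background where the scanner software marks it well above background. That percentile was 7.88 to 8.75 on the log2 scale on the 9 arrays of slides 1 and 2, and 6.67 to 7.08 on slide 3. The labelled tissue was checked on Ucp1, the uncoupling protein of brown fat, whose level was 9.87 to 10.63 on the 4 BAT arrays and -7.23 to -3.41 on the 8 WAT arrays; it was -4.57 on the array with contradictory labels. Adipoq, the adiponectin gene, was at 8.25 to 9.46 on all 13 arrays.

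On WAT arrays 70 of 80 member values were above background, and on BAT arrays 4 of 40, all 4 of them Apoa2. WAT vehicle 2 had the highest level of the 13 arrays for 8 of 10 members; over all features tested, 4.9% were highest there. The exceptions were Fga, on its brighter probe, and Mup6, which were highest on WAT AP20187 1. Averaged over the members, the level was 2.90 on WAT vehicle 2 and -1.18 on WAT vehicle 1, which carry the same labels. It was -0.39, -1.98 and -2.45 on wild type 1 to 3, 0.65, -0.77 and -0.28 on WAT AP20187 1 to 3, and 1.11 on the array with contradictory labels. On the BAT arrays it lay between -4.62 and -4.13. On WAT AP20187 2 and 3 the mean includes 1 spot each in a weak area, a patch where the surrounding spots read low. Without that spot it was -0.21 and 0.37, over 9 members and thus not the same genes as on the other arrays. The mean on WAT AP20187 1 includes an Apoh value of -6.24 that was not above background. In a bulk sample, fewer cells of a type and less RNA per cell cannot be told apart.

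**Figure D1:**
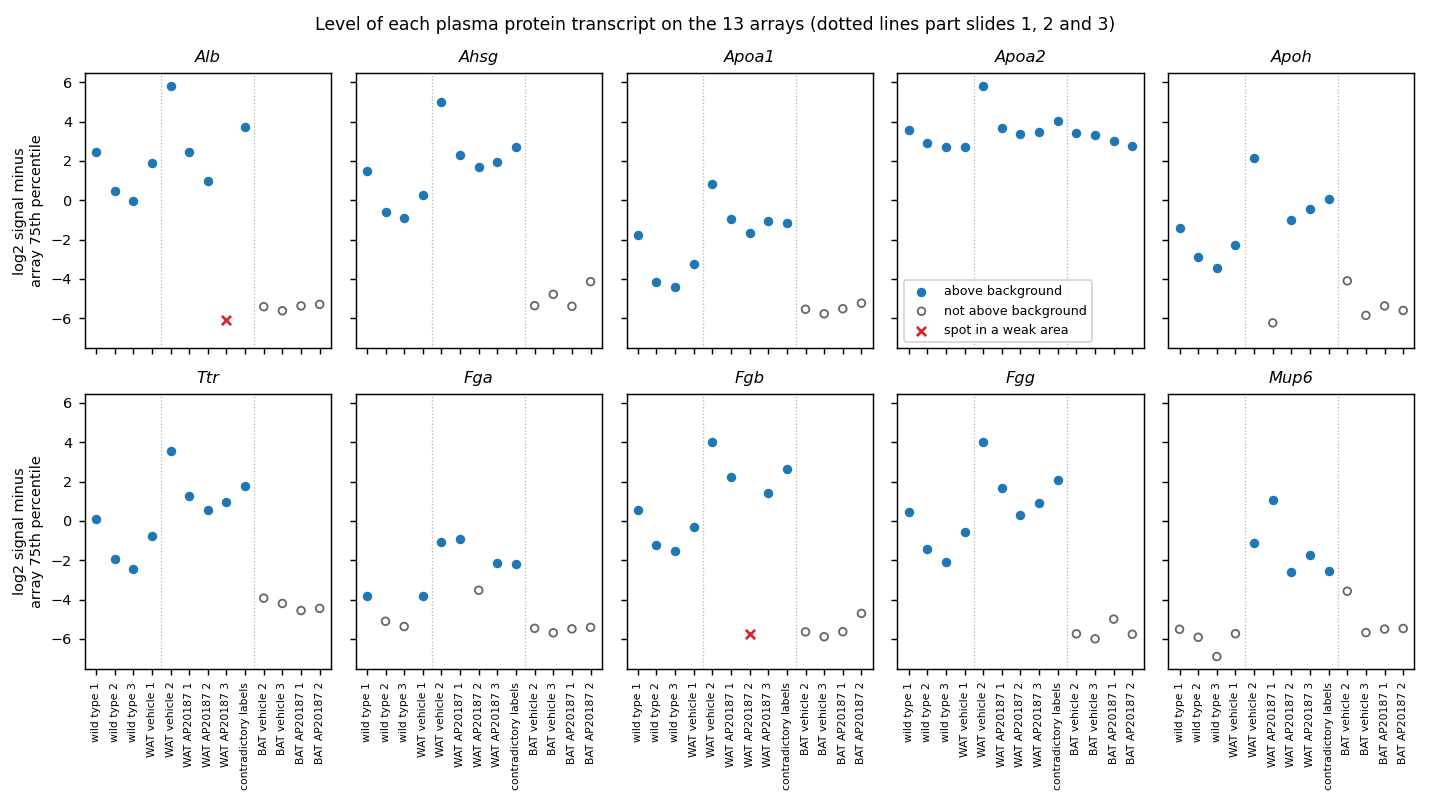
Level (log2 signal relative to the 75th percentile of its array) of each of the 10 genes on its brighter probe, with 1 point an array; open circles are not above background, crosses are spots in a weak area of the array, and dotted lines part the slides. WAT vehicle 2 carries the highest point in 8 of 10 panels, and the BAT points are not above background except for Apoa2.

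The carriers in plasma come first. Alb encodes albumin, the most abundant plasma protein and a carrier of fatty acids and hormones. Its level was 2.46, 0.47 and -0.04 on wild type 1 to 3, 1.91 on WAT vehicle 1 and 5.82 on WAT vehicle 2. On WAT AP20187 1 to 3 it was 2.45, 0.95 and -6.08, and on the array with contradictory labels 3.74. WAT vehicle 2 was thus 15.0-fold above WAT vehicle 1, while vehicle 1 lay within the wild-type range. The value of -6.08 came from 1 spot that was not above background, in a patch of that array where the 7 by 7 spots around it had a median of -3.66 (log2) relative to the other arrays. Without that spot, WAT vehicle 2 exceeded the AP20187 mean by 4.12 (log2) instead of 6.71. On the 4 BAT arrays Alb read -5.62 to -5.30 and was not above background, so the WAT vehicle mean exceeded BAT vehicle at least 172-fold. Such bounds set each dim array at the lowest level well above background there, or at its own level where that is higher. Bounds against BAT take the mean of the 2 WAT vehicle arrays. They therefore lean on WAT vehicle 2 and are no bound for WAT vehicle 1 alone.

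Ttr encodes transthyretin, which carries thyroid hormone and, with retinol-binding protein, vitamin A. Its level was 0.08, -1.94 and -2.45 on wild type 1 to 3, -0.76 on WAT vehicle 1 and 3.58 on WAT vehicle 2. With AP20187 it was 1.26, 0.56 and 0.96 on WAT arrays 1 to 3, and on the array with contradictory labels 1.76. The WAT arrays of slide 2 all lay above those of slide 1, and WAT vehicle 2 was 20.1-fold above WAT vehicle 1. BAT read -4.56 to -3.92, not above background, which puts WAT vehicle at least 31.4-fold above BAT vehicle.

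Ahsg encodes fetuin-A, a glycoprotein that binds calcium phosphate and keeps it from precipitating. Its level was 1.503, -0.58 and -0.92 on wild type 1 to 3 (mean 0.00 ± 1.31, SD, n = 3), and 0.27 and 4.98 on WAT vehicle 1 and 2. On WAT AP20187 1 to 3 it was 2.28, 1.67 and 1.92 (mean 1.96 ± 0.31, SD, n = 3), and on the array with contradictory labels 2.70. The AP20187 arrays lay between the 2 vehicle arrays, and all 3 were above the wild-type arrays. BAT read -5.40 to -4.14, not above background, with WAT vehicle at least 73.0-fold above BAT vehicle.

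Mup6 belongs to the major urinary proteins, small pheromone carriers that male liver makes in quantity. It was not above background on any of the 4 arrays of slide 1, where it read -6.90 to -5.51. On slide 2 it was above background on all 5 arrays: -1.14 on WAT vehicle 2, 1.07, -2.58 and -1.74 on WAT AP20187 1 to 3, and -2.55 on the array with contradictory labels. The mean of the AP20187 arrays was at least 13.7-fold above that of wild type, and WAT vehicle 2 at least 16.3-fold above WAT vehicle 1. The 13.7-fold leans on WAT AP20187 1 and is no bound for WAT AP20187 2 or 3 alone. Those arrays lay nearer to the wild-type bound of -4.86. BAT read -5.68 to -3.57, not above background. Genes of this family are near copies of each other, so each Mup probe may read several of them.

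The array named 7 more Mup genes, and most of their probes differed from that of Mup6. Mup2 was at 2.01, 0.50 and 0.08 on wild type 1 to 3, 0.79 on WAT vehicle 1, 4.83 on WAT vehicle 2, and 2.63, 2.27 and 2.68 on WAT AP20187 1 to 3. Mup3 was at 1.18, -0.37, -0.70, 0.12, 4.42, 1.86, 2.06 and 1.93 on the same arrays in the same order. Both were highest on WAT vehicle 2 with the AP20187 arrays close together, and both were above background on slide 1, unlike Mup6. Not every probe of the family did so. A Mup4 probe was not above background on any array. A Mup20 probe read -6.33, not above background, on WAT AP20187 1 and 3.55 and 3.12 on WAT AP20187 2 and 3. A Mup19 probe read -1.70 on WAT AP20187 2 and 3.98 and 4.00 on WAT AP20187 1 and 3. Of the 8 family members tested, 7 were highest on WAT vehicle 2. Mup2 and Mup3 were above background on the 4 BAT arrays as well, at -1.98 to -0.16 and at -3.43 to -1.97.

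The apolipoproteins follow. Apoa1 encodes the main protein of high-density lipoprotein and is read by 10 spots of 1 probe. Its level was -1.79, -4.16 and -4.39 on wild type 1 to 3, -3.22 on WAT vehicle 1 and 0.85 on WAT vehicle 2. It was -0.96, -1.65 and -1.04 on WAT AP20187 1 to 3, and on the array with contradictory labels -1.17. The WAT arrays of slide 2 again lay above all of slide 1, and WAT vehicle 2 was 16.8-fold above vehicle 1. On WAT AP20187 2 the weakest surroundings among these spots had a median of -1.46 (log2) relative to the other arrays, and the mean was kept. BAT read -5.78 to -5.24, not above background, with the WAT vehicle mean at least 5.19-fold above BAT vehicle. WAT vehicle 1 alone, at -3.22, lay just above the BAT bound of -3.56.

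Apoh encodes beta-2-glycoprotein I, a phospholipid-binding plasma protein. Its level was -1.40, -2.86 and -3.46 on wild type 1 to 3, -2.28 on WAT vehicle 1 and 2.13 on WAT vehicle 2. On WAT AP20187 1 to 3 it was -6.24, -0.997 and -0.45, and on the array with contradictory labels 0.04. The value of -6.24 was not above background, although the spots around it read at their usual strength (a median of -0.13, log2, relative to the other arrays); its origin was not tested. Apart from it, the slide 2 values lay above those of slide 1. WAT vehicle 2 was 21.3-fold above vehicle 1, and the WAT vehicle mean at least 11.2-fold above BAT vehicle. WAT vehicle 1 alone, at -2.28, lay nearer than that mean to the BAT bound of -3.56. Over the 4 BAT arrays Apoh read -5.86 to -4.10.

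Apoa2, the second protein of high-density lipoprotein, was above background on every array with both of its probes, and the probes differed. On the dimmer probe the level was 1.92, -0.13 and -0.54 on wild type 1 to 3, 0.996 and 5.04 on WAT vehicle 1 and 2, 2.27, 2.19 and 2.30 on WAT AP20187 1 to 3, and 2.92 on the array with contradictory labels. On the brighter probe the same arrays, in the same order, were at 3.56, 2.93, 2.68, 2.71, 5.81, 3.65, 3.38, 3.44 and 4.01. The dimmer probe spread over the WAT arrays as the other members did, while the brighter probe stayed within 0.88 (log2) across slide 1. On BAT vehicle 2 and 3 and BAT AP20187 1 and 2 the brighter probe was at 3.44, 3.31, 3.03 and 2.77, no lower than on wild type 3, and the dimmer one at -0.11, -0.70, -0.16 and -0.58. The gap between the probes was 0.77 on WAT vehicle 2, 3.22 on wild type 3 and 3.18 to 4.00 on the BAT arrays. The reference lists 2 promoters for Apoa2, but the files do not place the probes on transcripts, so what the brighter probe reads where the other is dim was not tested.

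**Figure D2:**
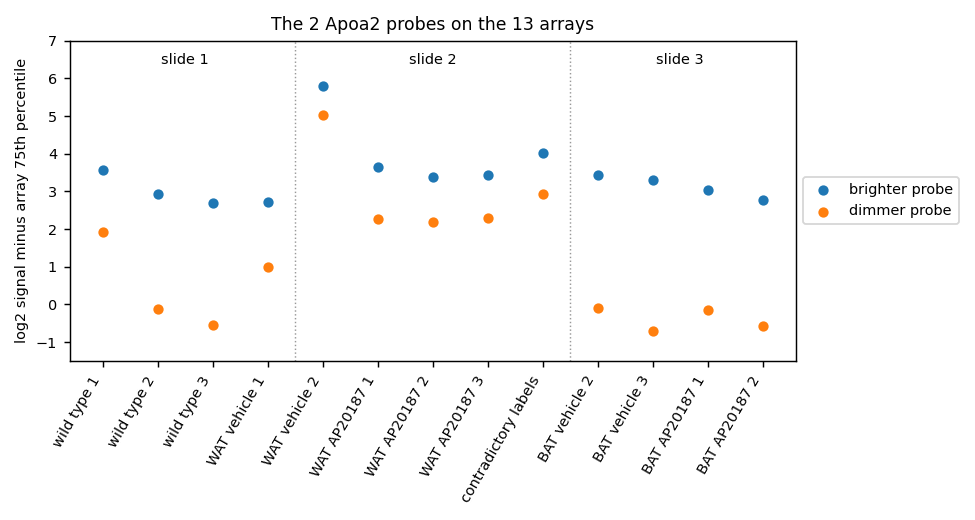
Level (log2 signal relative to the 75th percentile of its array) of Apoa2 on its 2 probes, with 1 point an array and dotted lines parting the slides. The probes come within 0.77 of each other on WAT vehicle 2 and part by 3.18 to 4.00 on the BAT arrays.

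Fga, Fgb and Fgg encode the 3 chains of fibrinogen, the clotting protein, and lie side by side in the genome. Fgb was at 0.54, -1.22 and -1.55 on wild type 1 to 3, -0.32 on WAT vehicle 1 and 4.04 on WAT vehicle 2. On WAT AP20187 1 to 3 it was at 2.23, -5.77 and 1.42, and on the array with contradictory labels at 2.66. The value of -5.77 came from a patch of WAT AP20187 2 where the surrounding spots had a median of -5.15 (log2) relative to the other arrays. Without it, the slide 2 WAT arrays all lay above slide 1. BAT read -5.89 to -4.70, not above background, and WAT vehicle exceeded BAT vehicle at least 42.9-fold.

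Fgg was at 0.46, -1.44 and -2.10 on wild type 1 to 3, -0.56 on WAT vehicle 1 and 4.04 on WAT vehicle 2. On WAT AP20187 1 to 3 it was at 1.67, 0.28 and 0.93, and on the array with contradictory labels at 2.08. Here WAT AP20187 2 lay just under wild type 1, so the slides overlapped. Fgb minus Fgg varied little over the 8 arrays with both above background: its SD was 0.23 (log2), while Fgb itself spanned 5.59. BAT read -6.00 to -4.99, not above background, with WAT vehicle at least 39.4-fold above BAT vehicle.

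Fga was the dimmest signal of the 3 chains and departed from them. On its brighter probe it was at -3.82 on both wild type 1 and WAT vehicle 1, and not above background on wild type 2 and 3, at -5.10 and -5.37. On slide 2 it was at -1.05 on WAT vehicle 2, -0.94, -3.52 and -2.14 on WAT AP20187 1 to 3, and -2.21 on the array with contradictory labels, with the -3.52 not above background. WAT AP20187 1 was thus level with WAT vehicle 2, whereas for Fgg it was well below that array. The second Fga probe was at -1.86 on WAT vehicle 2 and -2.93 on WAT AP20187 1. It was dimmer, but there vehicle 2 was the higher of the pair. BAT read -5.69 to -5.41 on the brighter probe, not above background, and the WAT vehicle mean was at least 2.18-fold above BAT vehicle. That bound rests on WAT vehicle 2, since WAT vehicle 1, at -3.82, lay below the BAT bound of -3.56.

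Members that share expression often share promoter elements, so the promoters that RefSeq (GRCm38.p6) lists from 250 bases before to 50 after the start were searched on both strands. Of the 10 members, 9 had an entry. The letters GTTAAT, the core of the HNF1 recognition site, occurred in 3 of 9 members (Alb, Fga and Fgb) and in 7.1% of 32851 promoters. TTNNGNAA, a C/EBP pattern, occurred in 7 of 9 and in 40.7% of promoters. TGTTTNC, a FOXA pattern, occurred in 8 of 9 and in 20.5%. TATAAA, the letters of the TATA box, occurred in 2 of 9 (Apoa2 and Mup6) and in 13.6%. In Apoa2 they lie near the upstream end of the window, away from the start. Apoa2 has 2 entries and counts as a match where either has one, while the percentages count single promoters. A match describes letters in a window and is no measured binding. The 3 promoters shown are those of albumin and the fibrinogen beta chain, which were highest on WAT vehicle 2, and of Mup6, which was highest on WAT AP20187 1. Capitals mark GTTAAT or its reverse complement in Alb and Fgb and TATAAA in Mup6. They lie at chr5:90460620-90460919 on the plus strand, chr3:83049814-83050113 on the minus strand and chr4:60003231-60003530 on the plus strand.
Alb: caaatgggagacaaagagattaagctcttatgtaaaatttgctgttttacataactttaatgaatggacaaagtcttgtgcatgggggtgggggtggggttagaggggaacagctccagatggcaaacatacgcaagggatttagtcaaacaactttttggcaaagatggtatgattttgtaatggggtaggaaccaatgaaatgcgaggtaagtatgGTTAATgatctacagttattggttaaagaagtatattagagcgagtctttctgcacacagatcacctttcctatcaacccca
Fgb: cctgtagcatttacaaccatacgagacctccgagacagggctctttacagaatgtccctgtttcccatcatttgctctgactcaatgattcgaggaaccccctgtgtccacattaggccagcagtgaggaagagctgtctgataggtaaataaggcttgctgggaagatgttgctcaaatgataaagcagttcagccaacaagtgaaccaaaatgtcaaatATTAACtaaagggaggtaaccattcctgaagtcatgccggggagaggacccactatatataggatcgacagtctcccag
Mup6: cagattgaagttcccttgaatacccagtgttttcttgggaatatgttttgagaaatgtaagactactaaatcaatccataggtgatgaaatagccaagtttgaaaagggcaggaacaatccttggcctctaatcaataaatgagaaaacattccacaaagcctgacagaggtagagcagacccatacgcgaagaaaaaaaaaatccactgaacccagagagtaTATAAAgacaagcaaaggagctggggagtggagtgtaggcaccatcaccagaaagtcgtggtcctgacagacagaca

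Set against each other, most members kept nearly constant differences over the 9 arrays of slides 1 and 2. Ahsg, Apoa1, Apoa2, Ttr and Fgg were above background on all 9, and their mean served as the measure of the set on each array. Relative to it Apoh had an SD of 0.16 (log2, 8 arrays), Ahsg of 0.20, Apoa1 of 0.30, Ttr of 0.31, Fgg of 0.32 and Fgb of 0.38 (8 arrays), while the levels of these genes had SDs of 1.69 to 1.97. Ahsg, Apoa1, Ttr and Fgg are part of that mean, which lowers their SDs by construction, and Apoh and Fgb are not. Paired directly with Ahsg, the difference had an SD of 0.23 for Ttr, 0.25 for Fgg, 0.35 for Apoa1, 0.71 for Alb (8 arrays) and 0.97 for Apoa2. Alb varied more, at 0.68, being 2.22 above the mean on WAT vehicle 1 and 0.11 above on WAT AP20187 2. Apoa2 (0.81), Fga (0.87, 6 arrays) and Mup6 (1.73, 5 arrays) varied most. Among the arrays where each was above background, Fga (on its brighter probe) and Mup6 stood highest, relative to the set, on WAT AP20187 1 and lowest on WAT vehicle 2. The second Fga probe, not set against the mean, was at -1.86 on WAT vehicle 2 and -2.93 on WAT AP20187 1. The mean itself was 3.85 and 1.58 on these arrays, so it differed by more than that probe did. Relative to the mean, Mup6 was at -0.51 on WAT AP20187 1 and at -4.99 on WAT vehicle 2.

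**Figure D3:**
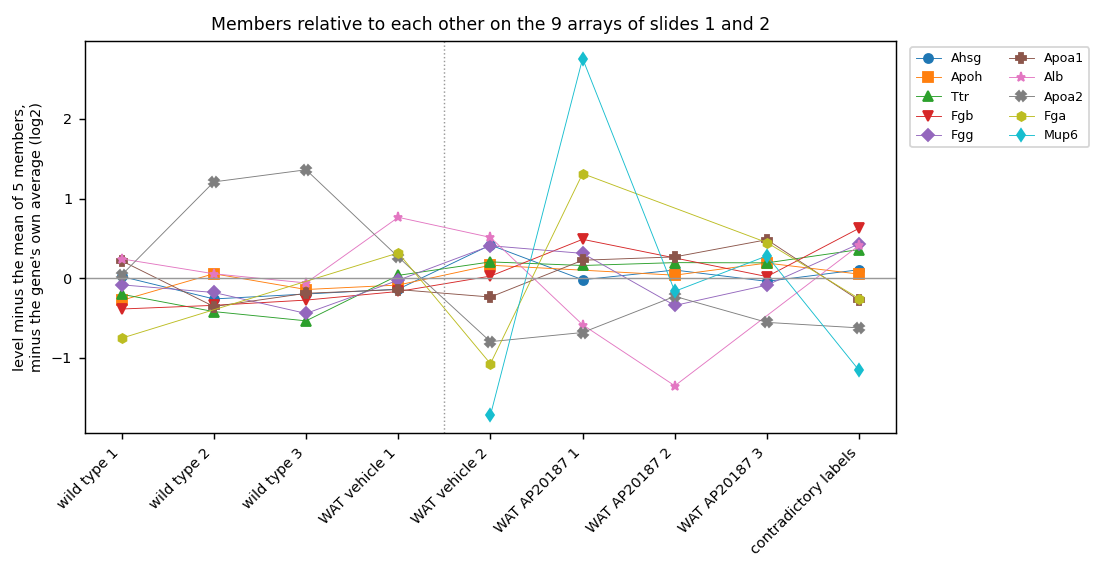
Each gene's level minus the mean of Ahsg, Apoa1, Apoa2, Ttr and Fgg on the same array, centred on the gene's own average (log2), for the 9 arrays of slides 1 and 2; values not above background or in a weak area are left out, and thin lines join the points of a gene. Ahsg, Apoh, Ttr, Fgb, Fgg and Apoa1 stay close to 0, and of these only Apoh and Fgb are outside the mean. Mup6 and, on its brighter probe, Fga peak on WAT AP20187 1.

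WAT AP20187 1 also carried transcripts of the epididymis, the tissue beside gonadal fat. The mean level of 9 epididymal marker genes with a value on all arrays was 8.62 there, 0.75 on WAT AP20187 2, and -5.32 to -3.20 on the other WAT arrays. The part of these transcripts in the Fga and Mup6 values was not tested. Serpinf2, the plasmin inhibitor alpha-2-antiplasmin, showed the same peak, at 4.47 on WAT AP20187 1 and 0.92 on WAT vehicle 2. On WAT AP20187 2 and 3 it was at -2.25 and -2.26.

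Within slide 1 the members had a common order too. Of the 8 members above background on all 4 arrays, 7 ran from wild type 1 through WAT vehicle 1 and wild type 2 down to wild type 3; Apoa2 on its brighter probe did not. Over all features tested, 4.2% had that order. For all 10 members WAT vehicle 1 lay within the wild-type range. For Mup6 that range holds only values not above background, and for Fga those of wild type 2 and 3 were not. The share of all features with WAT vehicle 1 in that range was not computed. Between slides, 5 of 10 members had every slide 2 WAT array above every slide 1 WAT array (Ahsg, Apoa1, Ttr, Fga and Mup6), against 11.5% of 23533 features. Fga is counted there on its brighter probe. The median difference between the slide means was 2.63 (log2) for the members and 0.14 for all features. All AP20187 arrays of WAT are on slide 2 and all wild-type arrays on slide 1, so for these groups treatment and slide cannot be told apart.

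Over all 13 arrays, the Pearson correlation between pairs of members had a median of 0.77 over 45 pairs, from 0.27 (Apoh and Mup6) to 0.99 (Ahsg and Fgb), with the 2 spots in weak areas left out. Values not above background were kept, among them the Apoh value of -6.24 on WAT AP20187 1, where Mup6 was highest. The SD of Apoh relative to the set leaves that value out. Over the 8 arrays of slides 1 and 2 that remain without WAT vehicle 2 the median was 0.88. With all spots kept, the 10 named genes most like the mean of the members over the 13 arrays were Mbl2 (r = 0.99) and, with r of at least 0.977, Gulo, Cyp2d26, Mug2, Mup3, Cyp2a12, Fabp1, Akr1c6, Pzp and Cyp3a11. Mbl2 encodes a mannose-binding lectin of plasma, Gulo the last enzyme of vitamin C synthesis, Mug2 and Pzp protease inhibitors of the macroglobulin family, and Fabp1 the liver fatty acid-binding protein. Without the spots in weak areas, Akr1c6 came first (r = 0.992), and Ambp, Plg and Mup2 replaced Gulo, Mug2 and Pzp among the first 10. With all spots kept, of the 50 most alike, 13 were on the list of other liver plasma proteins, 7 on that of hepatocyte enzymes and 5 on that of the Mup family. The median r was 0.88 for 38 other liver plasma proteins, 0.82 for 27 hepatocyte enzymes and transporters, 0.51 for 10 liver transcription factors and 0.01 for all 15254 named genes. It was also 0.77 for 13 plasma proteins that fat makes too and 0.79 for 5 genes of other liver cells. Over the 9 arrays of slides 1 and 2 it was 0.84 for the other liver plasma proteins, 0.84 for the hepatocyte enzymes, 0.41 for the transcription factors, 0.12 for plasma proteins that fat makes too and 0.17 for 6 genes of other liver cells. The arrays share tissue, slide and scaling, so these values are a description.

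The other liver genes came from 3 lists: 40 plasma proteins, 30 enzymes and transporters inside hepatocytes, and 14 transcription factors, 84 in all, of which 82 are on the array and 68 passed the filter on dim probes. The median difference between WAT vehicle 2 and WAT vehicle 1 was 4.34 (log2) for the members, 3.42 for 37 other plasma proteins, 3.02 for 23 enzymes and transporters, 0.63 for 8 transcription factors and 0.03 for all features. For the members it was 3.54 under background correction by normexp with quantile scaling. Differences over 1 in that direction were found in 33 of 37 plasma proteins, 19 of 23 enzymes and 4.54% of all features. For 16 plasma proteins that fat also makes, among them Hp (haptoglobin), Cfd (adipsin) and Rbp4, the median was 0.05, and for 10 adipocyte genes -0.02.

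**Figure D4:**
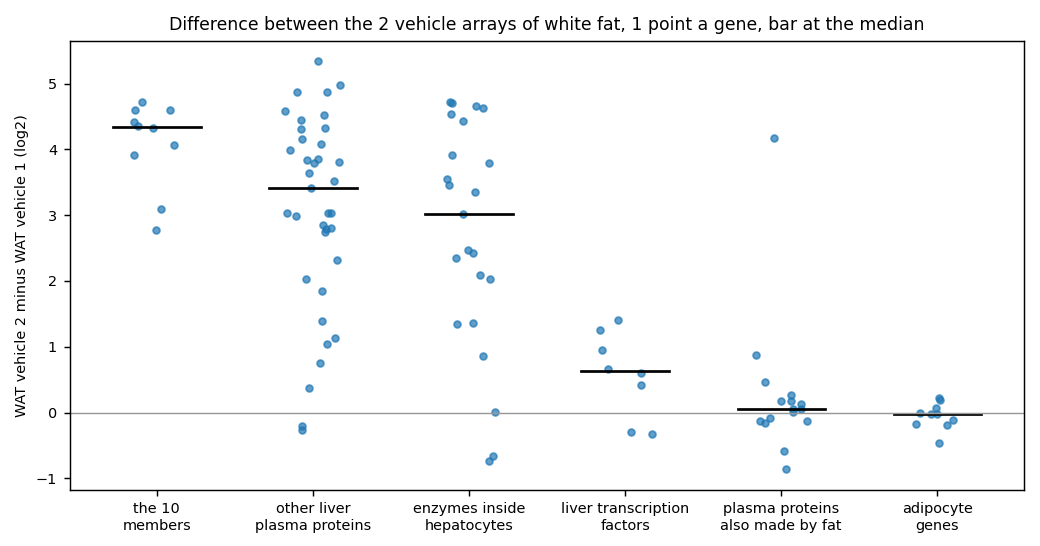
Level on WAT vehicle 2 minus level on WAT vehicle 1 (log2), with 1 point for each tested gene of 6 lists and a bar at the list's median. The members (4.34), other liver plasma proteins (3.42) and hepatocyte enzymes (3.02) lie above 0, and plasma proteins also made by fat (0.05) and adipocyte genes (-0.02) lie around it.

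Among the other plasma proteins with the widest ranges, Ambp, the precursor of a protease inhibitor, was at 0.92, -1.21 and -2.02 on wild type 1 to 3, -0.27 and 4.60 on WAT vehicle 1 and 2, and 2.26, 1.65 and 2.31 on WAT AP20187 1 to 3. Gc, the vitamin D-binding protein, was at 0.49, -1.33, -1.92, -0.40, 3.93, 3.67, -0.47 and 0.53 on the same arrays in that order. Gc thus stood nearly as high on WAT AP20187 1 as on WAT vehicle 2. Serpina3k, a serine protease inhibitor, was at 3.73 on WAT vehicle 2 and at 0.21 to 2.68 on the other WAT arrays. F10 (clotting factor X) and F11 (factor XI) had the narrowest ranges, of 1.40 and 3.06 (log2). The F10 probe was at 9.56 to 10.96 on all 13 arrays and lowest on WAT vehicle 2, against the pattern of the members.

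Of the enzymes and transporters, Fabp1 was at 1.15, -0.79 and -1.58 on wild type 1 to 3, -0.20 and 4.43 on WAT vehicle 1 and 2, and 1.93, 1.08 and 1.78 on WAT AP20187 1 to 3. This is the order of the members. Bhmt, which remethylates homocysteine with betaine, was at 0.50, -1.39, -1.72, -0.25 and 4.18 on the first 5 of these arrays, but at -1.28, -2.53 and -2.17 on WAT AP20187 1 to 3. Uox, urate oxidase, was likewise at 0.08 and 2.50 on WAT vehicle 1 and 2 and at -1.32, -0.30 and -1.59 with AP20187. Bhmt and Uox on the AP20187 arrays therefore lay in or below the wild-type range. Tat, tyrosine aminotransferase, ranged over 2.81 and Slc10a1, the bile acid importer, over 1.09, the latter at 9.07 to 10.15 on all arrays.

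Of 8 liver transcription factors tested, 5 were highest on WAT vehicle 2, and 2 were over 1 (log2) higher there than on WAT vehicle 1. Hnf4a was at 1.92, 2.01 and 1.68 on wild type 1 to 3, 1.64 and 1.34 on WAT vehicle 1 and 2, 0.97, 1.79 and -1.08 on WAT AP20187 1 to 3, and not above background on BAT at -5.99 to -5.74. It was lower on WAT vehicle 2 than on any array of slide 1. Foxa2 was at -2.63 on WAT vehicle 2 and at -7.25 to -4.92 on the other WAT arrays. Foxa1 was at 0.19 on wild type 3 and at -7.47 to -5.04 on the other WAT arrays. Nr5a2 ranged from -5.80 to -0.77, Nr1i2 from -6.53 to -3.67 and Hhex from -0.99 to 0.71, each highest on WAT vehicle 2.

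The groups were compared on these 68 genes with limma, adjusted by Benjamini-Hochberg over all 24456 features. In WAT, AP20187 against vehicle gave 0 of 68 calls, with 6 at an unadjusted p under 0.05, where 2.24% of all features were called. The median change of the 68 genes was -0.49 (log2), and it changed with the vehicle arrays used: it was 1.03 without WAT vehicle 2, and -2.001 without WAT vehicle 1, where 78 genes passed the filter. With slide as a block it was -1.93, again with 0 calls. WAT vehicle is the only group on more than 1 slide, so that slide term is the difference between its 2 arrays. In WAT, vehicle against wild type gave 0 of 68 calls (8 unadjusted; 0.0245% of features called). Its median change was 1.27, or 0.09 without WAT vehicle 2. Without WAT vehicle 1 it was 2.97 over 78 genes, in a fit where the lone array is assumed to vary like the other groups.

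In WAT, AP20187 against wild type called 2 of 68 genes, both higher, a share of 2.94% where 8.87% of all features were called. Slc27a5, a liver fatty acid transporter and bile acid ligase, rose by 6.26 ± 1.06 (log2, SE; limma, adjusted p = 0.026), from -2.17, -3.71 and -4.30 on wild type 1 to 3 to 3.32, 2.04 and 3.24 on WAT AP20187 1 to 3. It was at -2.98 and 1.69 on WAT vehicle 1 and 2. Cyp2c29, a cytochrome P450 of liver, rose by 4.24 ± 0.95 (adjusted p = 0.034), from -2.52, -4.25 and -4.69 to 0.77, -0.52 and 0.99, with -3.20 and 0.71 on WAT vehicle 1 and 2. Its spot on WAT AP20187 3 lay in a weak area, with a median of -3.12 (log2) around it, and without such spots 1 of the 68 genes was called. For both genes WAT vehicle 2 lay with the AP20187 arrays of its slide and WAT vehicle 1 with the wild-type arrays of its own. With slide as a block, a term that again rests on the 2 WAT vehicle arrays, 0 of 68 were called. The count was 0 without wild type 1, 2 or 3 in turn, or without WAT AP20187 2 or 3. It was 1 without WAT AP20187 1, where 5353 of 24483 features were called. It was 7 without WAT vehicle 2, where 1452 of 25465 features were called, and 13 of 78 without WAT vehicle 1, where 1949 of 26373 were. Of the members 1 was called (Mup6), of which nothing is read, since the members were selected on these levels.

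In BAT, AP20187 against vehicle gave 0 of 68 calls (2 unadjusted; 0.00818% of features called), with a median change of 0.06. Vehicle BAT against vehicle WAT called 32 of 68 genes, 29 lower and 3 higher in BAT, where 23.4% of all features were called. Of the 29, 18 were above background on neither BAT vehicle array and 3 on 1 of them, so they passed the filter through WAT, where they are higher, and their number is not read as a result. Of 17 genes with probes above background on all 12 arrays, 6 were called lower and 4 higher, where 4967 of 15893 such features were called. Cyp2e1, a cytochrome P450 above background on all 4 vehicle arrays, changed by -5.72 ± 0.84 (log2, SE; limma, adjusted p = 0.0021). Serpina3k, above background on 1 of the 2 BAT vehicle arrays, changed by -6.49 ± 1.08 (log2, SE). It too passed the filter through WAT, so its p-value is not read. For genes not above background in BAT the change has only a bound, and their p-values are not read, since they passed the filter through WAT. The WAT vehicle mean was at least 40.2-fold above BAT vehicle for Gc, 53.1-fold for Ambp, 51.3-fold for Fabp1 and 33.2-fold for Hnf4a. The 3 that rose were Kng1 (kininogen; by 4.58 ± 0.92, adjusted p = 0.0083), Gys2 (liver glycogen synthase) and F10; of the 5 members called, nothing is read. The median change of the 68 genes was -3.09 (log2). It was -1.59 without WAT vehicle 2, -4.22 over 78 genes without WAT vehicle 1, -3.545 without BAT vehicle 2 and -3.07 without BAT vehicle 3. Each of these fits leaves 1 array in a group. Skeletal muscle genes also differed there, with list means of 1.006 and 5.23 on the BAT vehicle arrays and -3.27 and -3.18 on the WAT vehicle arrays; their part in the result was not tested. The treatment protocol in the labels speaks of muscles, although every sample is labelled WAT or BAT. All BAT arrays are on slide 3, so tissue and slide cannot be told apart.

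Markers of other tissues were compared between the vehicle arrays too. On WAT vehicle 1 and 2 the list means were -3.27 and -3.18 for skeletal muscle, -3.78 and -3.41 for pancreas, -3.43 and -3.48 for kidney, -5.07 and -4.36 for intestine and 0.66 and 0.39 for red cells, each over the genes of the list above background on at least 1 array. Liver cells other than hepatocytes had list means of -1.995 and -1.14. Of the 6 tested genes of that list, 2 were higher on WAT vehicle 2, and the median difference was -0.04 (log2). Whether liver tissue or RNA was present in these samples was not tested, and no sample labelled liver was analysed here.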

How the data were processed

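Cy3-labelled cRNA was made from each RNA, per the labels' protocols, and read on Agilent arrays in 1 colour. The processed signal that the authors deposited is an intensity, subtracted for background inside each array by Agilent Feature Extraction 10.7.1.1, per the file headers. The authors' value table, an intensity too, was used as an alternative. Probes were named through RefSeq accessions (GRCm38.p6), and spots of a probe were averaged without outlier spots. Levels are log2 of the deposited intensity minus the 75th percentile of the array over non-control probes. A probe entered the fit where all arrays of 1 or more groups had it above background; the probe with the highest mean stood for a gene, giving 24456 features from 12 arrays. These were fitted with limma 3.58.1 (lmFit, eBayes; R 4.3.3), Benjamini-Hochberg adjusted at 0.05, and the scripts were tested on simulated data. Named genes were all members, the 4 widest and 2 narrowest ranges of each other liver list, calls (the largest up to 5) and the 10 most like the member mean; Kng1, Gys2 and Cyp2e1 were named after their values were seen. One gene that this rule names is not reported here. Members and lists were chosen with earlier results of these data known. The number of arrays limits the precision.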

Additional observations from a re-analysis of the deposited data

Results flagged for a closer look

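The array with contradictory labels is in no comparison. The mean level of the 10 members was 1.11 on it, while on the 4 BAT arrays, which its tissue label names, it lay between -4.62 and -4.13. All 10 members were above background there, and each was above every array of slide 1 and below WAT vehicle 2, as were 11.3% of 24369 features. Groups of 2 or 3 arrays are too small for a test of single outlying arrays.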

How the results depend on the processing

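The filter was applied anew in each setting, so 78 liver genes were tested without WAT vehicle 1, 82 with no filter, 23 to 67 with only the compared arrays and 68 in the main setting. Leaving out 1 array at a time gave 0 to 3 calls for AP20187 against vehicle in WAT, 0 to 0 in BAT, 0 to 29 for WAT vehicle against wild type, 0 to 13 for WAT AP20187 against wild type (main count 2) and 16 to 54 for BAT against WAT vehicle (main count 32). With no filter on dim probes AP20187 against vehicle in WAT gave 2 calls of 82, where 5512 of 37119 features were called. AP20187 against vehicle was followed by AP20187 against wild type, which gave 6 of 82, where 7031 of 37119 were called. The latter count was 0 under quantile scaling, in the authors' value table, with probes above background on all 12 arrays, with only the compared arrays and with slide as a block; it was 1 with the percentile over probes above background on all 12 arrays, with normexp, with the mean of probes, and without spots in weak areas, an alternative chosen after seeing the data. BAT against WAT vehicle gave 10 calls with probes above background on all 12 arrays, where 17 of the genes were left. Of these calls 6 were lower and 4 higher, against 29 lower and 3 higher in the main setting. Over all features of that filter 4967 of 15893 were called. With only the compared arrays it gave 18 calls of 66, where 4685 of 23887 features were called. The median change of the tested liver genes turned from -0.49 to 1.03 without WAT vehicle 2 (-2.001 without WAT vehicle 1) in AP20187 against vehicle. In AP20187 against wild type it turned from 0.85 to -2.02 with slide as a block. Those groups share no slide, so the slide term is the difference between WAT vehicle 2 and WAT vehicle 1. What set these 2 arrays apart was not tested. A slide block could not be fitted for BAT against WAT.

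Replicate numbers did not pair the arrays: deviations of same-numbered arrays correlated at -0.23 to 0.11. A replicate block gave 0 calls for AP20187 against wild type, 21 for BAT against WAT vehicle and 0 in the other comparisons. For BAT against WAT vehicle 3903 of 24456 features were called with that block.

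Under quantile scaling, the other percentile and the authors' value table the members' median difference between WAT vehicle 2 and 1 was 4.44, 4.26 and 4.61. The mean level of members by array could not be given from that table, where many BAT values of the members are blank, and likeness within a slide is not given, since slides hold 4 or 5 arrays. Signals near background limit Fga and Mup6.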
